A study of Mus musculus with 399 samples.

Results

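The comparison set male against female liver in mice fed a high-fat diet, in 24 of the 96 liver libraries and 399 libraries of the series. The 24 were chosen by their labels: liver, high-fat diet, 20 weeks of age, with 6 males and 6 females of C57BL/6J (B6) and 6 males and 6 females of TALLYHO/Jng (TH). Both are inbred strains without an engineered allele, and TH is known as a polygenic model of obesity and type 2 diabetes in which males become hyperglycaemic. The study profiled fat, liver, pancreas and soleus of both strains and sexes on chow or on the high-fat diet. All mice were weaned at 4 weeks of age onto 1 of the 2 diets, so that the mice used here had been fed for 16 weeks. The labels give each liver library its own animal. Another 24 liver libraries, from mice of the same strains, sexes and age on chow, served for the comparison of diets.

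Sexual dimorphism of the rodent liver is set largely by the rhythm of growth hormone release from the pituitary. Males release the hormone in sharp pulses and females more continuously, and the transcription factor STAT5B carries the signal from the growth hormone receptor to the genome, where BCL6 in males and CUX2 in females act as repressors of genes of the other sex. The genes downstream are known for steroid and drug metabolism, for sulfation and for the urinary pheromone carriers of males.

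STAT5 factors bind the palindrome TTCNNNGAA. Among the genes with the largest sex differences, those below held this motif in the 250 bases before their annotated start, in the RefSeq promoters of build GRCm38.p6, and are shown because they fell on both sides of the comparison. Capitals mark the motif, each sequence runs 5′ to 3′ on the strand of its gene, and levels follow further on. Moxd1 (dopamine beta-hydroxylase-like protein, chr10:24223267-24223516, plus strand, motif starting 150 bases before the start) was higher in males. A1bg (a plasma glycoprotein, chr15:60921271-60921520, minus strand, 84 bases), Sult3a1 (a sulfotransferase, chr10:33857472-33857721, plus strand, 109 bases) and Slc22a26 (an organic anion carrier, chr19:7802668-7802917, minus strand, 141 bases) were higher in females.
Moxd1: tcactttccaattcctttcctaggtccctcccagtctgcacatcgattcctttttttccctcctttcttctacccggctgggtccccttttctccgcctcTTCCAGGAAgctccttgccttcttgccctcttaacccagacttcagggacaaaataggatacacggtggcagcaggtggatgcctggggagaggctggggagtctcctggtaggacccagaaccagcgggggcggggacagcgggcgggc
A1bg: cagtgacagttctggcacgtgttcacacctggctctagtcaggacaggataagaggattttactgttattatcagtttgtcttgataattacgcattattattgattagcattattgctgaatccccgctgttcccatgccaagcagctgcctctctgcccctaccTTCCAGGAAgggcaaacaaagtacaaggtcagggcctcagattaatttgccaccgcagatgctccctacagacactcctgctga
Sult3a1: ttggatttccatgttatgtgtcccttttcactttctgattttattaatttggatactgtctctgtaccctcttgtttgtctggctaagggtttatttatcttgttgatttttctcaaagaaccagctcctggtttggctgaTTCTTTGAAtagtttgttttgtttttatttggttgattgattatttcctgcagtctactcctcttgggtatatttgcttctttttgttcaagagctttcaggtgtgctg
Slc22a26: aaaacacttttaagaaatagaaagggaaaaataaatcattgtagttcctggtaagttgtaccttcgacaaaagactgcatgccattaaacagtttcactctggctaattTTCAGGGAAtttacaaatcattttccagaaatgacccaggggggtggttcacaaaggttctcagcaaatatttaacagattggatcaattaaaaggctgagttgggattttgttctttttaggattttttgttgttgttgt
Both strands read alike for a palindrome. The motif was present in 8.20% of the 25748 autosomal genes with a promoter in that table and in 7.49% of the 9984 that were also tested. It was in 2 of 17 promoters of the male-biased list used below (Keg1 and Moxd1), in 3 of 27 of the female-biased list (A1bg, Prlr and Sult3a1), in 4 of 25 of the growth hormone axis list and in 0 of 14 major urinary protein promoters. The genes shown came from the 10 largest differences per direction, where 1 of 6 promoters held it for males and 3 of 7 for females. These are matches of letters in a short window and say nothing of binding.

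Library totals ranged from 6599595 to 10769683 counts in the 12 males (median 8732222) and from 10482033 to 15282787 in the 12 females (median 12511369). The libraries also differed in how far their levels tilted with the GC content of genes, measured as the slope of each library's log2 deviation on GC fraction. That slope was between 0.28 and 1.97 in females and between -2.13 and 0.58 in males, and sex took 81.997% of its variance and 73.0% of the variance of log2 depth within strains. Depth, GC slope and sex therefore cannot be fully told apart here, and the values of a fit with GC slope as a covariate, added after the data were seen, are given beside the counts of the gene lists. B6 female 3 and B6 male 6 lay farther from their group than the other high-fat libraries, by more than 1.25 times the median deviation. Counting the chow libraries of that age, 5 lay that far, and diet comparisons without the libraries that stood apart left out all 5. Xist was at 1008 to 1493 CPM (counts scaled to the normalized library total) in females and at 0.825 to 3.08 CPM in males.

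**Figure D1:**
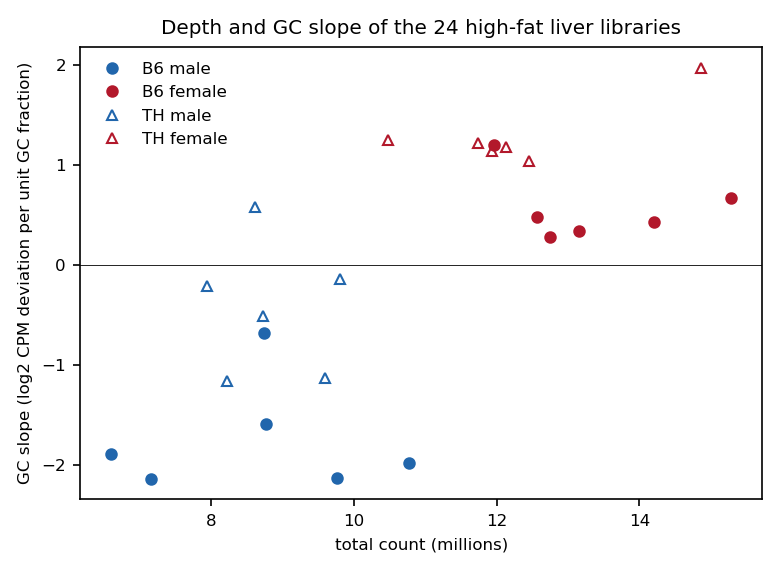
Total count per library (horizontal axis) against GC slope (vertical axis) for the 24 high-fat liver libraries, 1 point per mouse, coloured by sex with the strains marked. The females lie to the right, apart from 1 B6 male with more counts than the lowest female, and have slopes from 0.28 to 1.97, and all 6 B6 males lie at or below -0.68.

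With strain as a covariate, 5833 of 15203 autosomal genes tested differed between males and females on the high-fat diet at an adjusted p below 0.05 (edgeR quasi-likelihood test), which is 38.4%. Of these, 2837 (18.7%) were higher in males and 2996 (19.7%) higher in females. Most differences were small: 253 genes were at least 2-fold higher in males and 297 at least 2-fold higher in females, and 99 and 85 were at least 4-fold apart. With GC slope as a covariate the standard errors grew 2.38-fold at the median, and 353 genes (2.32%) were called higher in males and 273 (1.8%) higher in females.

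The classic male genes were higher in males on the high-fat diet. Of 24 genes known to be higher in male mouse liver, 23 were called higher in males and 0 lower, with a median log2 difference (male minus female) of 2.63 beside -0.02 over all genes. All 24 passed the filter on low counts, and the gene not called was Adgrf1 (-0.09 ± 0.34). Of the 24, 15 were called higher in males and 0 lower with GC slope as a covariate, at a median of 2.47.

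Cyp4a12a, a fatty acid omega-hydroxylase of male liver and kidney, was at 113 to 291 CPM (median 237.7) in B6 males and 0.231 to 0.477 CPM (median 0.410) in B6 females. In TH it was at 580.2 to 867 CPM (median 823) in males and 0.0730 to 0.498 CPM (median 0.307) in females. Every male was above every female in both strains, and the log2 difference was 10.35 ± 0.25 (SE, adjusted p = 8.56e-22). Its neighbour Cyp4a12b followed with 10.06 ± 0.22, although reads may be shared between these near-identical copies.

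Elovl3, which lengthens very long chain fatty acids, was at 219.6 to 549.8 CPM (median 372) in B6 males against 1.16 to 4.84 CPM (median 3.20) in B6 females. The TH values were 231 to 440.1 CPM (median 344) and 0.438 to 1.83 CPM (median 1.18). The sexes did not overlap, and the difference was 7.48 ± 0.26 (SE, adjusted p = 2.83e-18). Among the steroid hydroxylases, Cyp2d9 differed by 3.90 ± 0.13 and Cyp7b1, the oxysterol 7-alpha-hydroxylase, by 2.71 ± 0.18 on the log2 scale. Among the other members, the complement protein C6 differed by 2.35 ± 0.26, the glutathione transferase Gstp1 by 2.69 ± 0.09, the acyltransferase Keg1 by 1.59 ± 0.12 and the organic anion carrier Slco1a1 by 1.75 ± 0.18. The growth factor receptor gene Egfr was called at 0.79 ± 0.23, but its sexes overlapped in both strains and its value turned to -0.19, not called, with GC slope as a covariate.

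The rule that named the 10 largest differences per direction added further genes. Nat8f5, an N-acetyltransferase, differed by 6.54 ± 0.32, the matrix proteoglycan gene Omd by 5.10 ± 0.16 and the melatonin receptor gene Mtnr1a by 4.37 ± 0.36. Obp2a, an odorant binding lipocalin, averaged 23.2 CPM in TH males and had 0 counts in all 6 TH females, which makes it at least 658-fold higher in TH males against a floor of 3 counts over the group. Its level in B6 males averaged 0.758 CPM. Moxd1 averaged 5.33 CPM in the 12 males and had 2 counts in all 12 females together.

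The major urinary proteins, lipocalins that bind pheromones and leave in the urine, made up a larger share of all counts in males. The 22 genes took 8.12 to 11.7% of counts in B6 males, with a mean of 9.63% ± 1.37 (SD, n = 6), and 0.85 to 3.67% in B6 females, with a mean of 2.08% ± 1.15 (SD, n = 6). In TH the shares were 5.45 to 14.9% in males (9.39% ± 3.38, SD, n = 6) and 0.93 to 2.07% in females (1.49% ± 0.38, SD, n = 6). The sexes did not overlap in either strain, and the exact two-sided permutation test gave p = 0.00216 in each, the smallest that 6 against 6 allows. All 22 were called higher in males, with log2 differences from 1.46 to 7.52 and a median of 2.67, and all 22 again with GC slope as a covariate (median 3.21). Reads of most of these genes may be divided among near-identical copies, so the summed share is firmer than any single value.

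Mup20, known as darcin and the male signal that attracts females, was at 6848 to 8651 CPM (median 8018) in B6 males and 36.7 to 67.4 CPM (median 44.3) in B6 females. The TH values were 8555 to 12063 CPM (median 9654) in males and 32.3 to 64.2 CPM (median 45.4) in females. The difference of 7.52 ± 0.16 (SE, adjusted p = 7.39e-23) was the widest of the family.

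**Figure D2:**
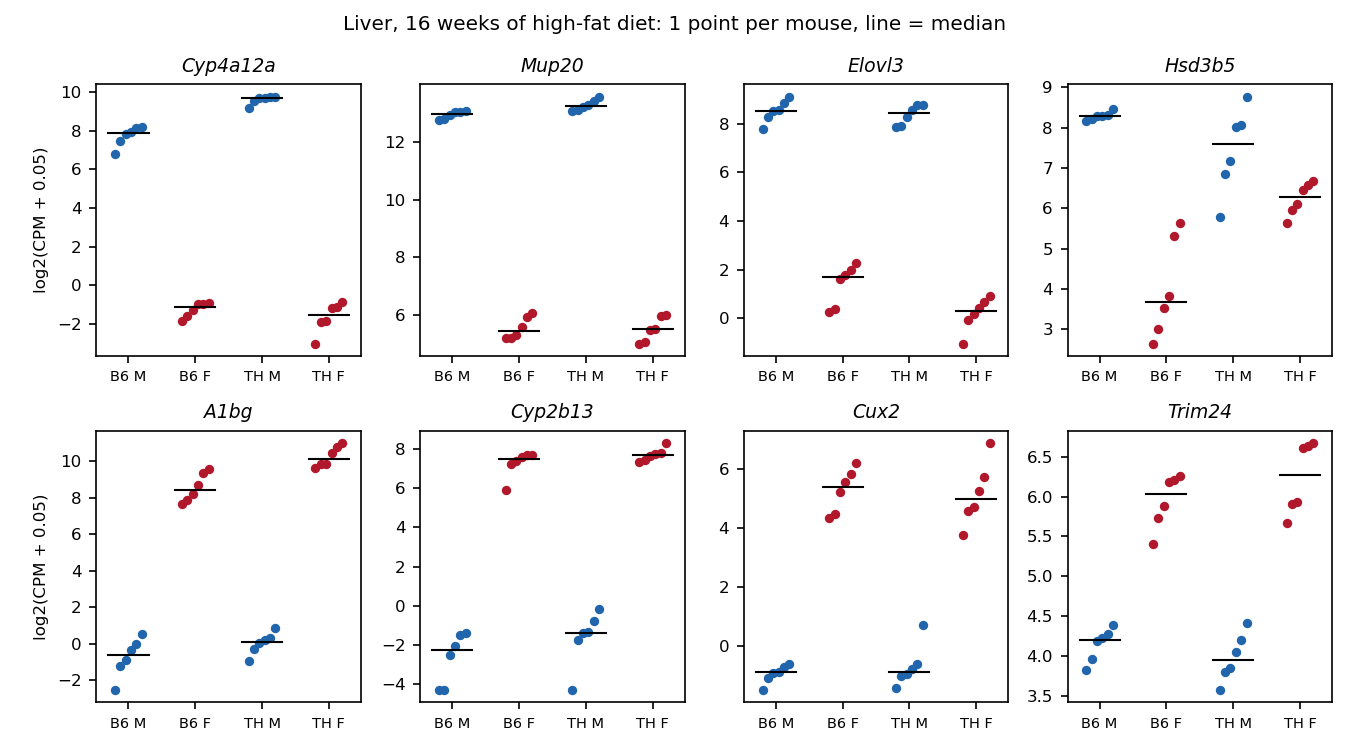
Levels of 8 genes as log2(CPM + 0.05) in the 4 high-fat groups, 1 point per mouse, males in blue and females in red, with a line at the group median. Cyp4a12a, Mup20, Elovl3 and Hsd3b5 are higher in males and A1bg, Cyp2b13, Cux2 and Trim24 higher in females, and the sexes overlap only for Hsd3b5 in TH.

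The female genes were separated as far. Of 32 genes known to be higher in female mouse liver, 31 were called higher in females and 0 higher in males, with a median log2 difference of -3.48. All 32 passed the filter. The fit with GC slope called 21 of the 32 higher in females, with a median of -3.64. The exception was Abcc4, an organic anion exporter, at 0.05 ± 0.19.

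A1bg was at 202 to 756 CPM (median 354) in B6 females and 0.123 to 1.38 CPM (median 0.617) in B6 males. In TH the levels were 804 to 2039.6 CPM (median 1162) and 0.471 to 1.81 CPM (median 1.03). The difference was -9.92 ± 0.33 (SE, adjusted p = 1.59e-18), with no overlap. Slc22a26 was at 129 to 257 CPM (median 196) and 101 to 215.8 CPM (median 174) in females of the 2 strains, and at 0.250 to 0.985 CPM (median 0.757) and 0.113 to 0.844 CPM (median 0.396) in males, which gave -8.30 ± 0.19.

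Phase 1 enzymes of this list included the cytochromes Cyp2b13 (-9.45 ± 0.28), Cyp2b9 (-7.14 ± 0.42), Cyp17a1 (-4.54 ± 0.26) and Cyp2a4 (-4.17 ± 0.20). The Cyp2c members Cyp2c38, Cyp2c39, Cyp2c40 and Cyp2c69 lay together between -2.81 and -2.45.

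Among the Sult2a sulfotransferases, which add sulfate to steroids and bile acids, Sult2a1 to Sult2a5 had few or no counts in males. The same held for Sult3a1 and Sult3a2. Sult2a3 had 0 counts in all 12 males and averaged 2.94 CPM in females, at least 99.2-fold higher against a floor of 3 counts over the 12 males. Sult2a4 had 0 counts in TH males and was at least 182-fold higher in TH females, and Sult3a2 had 0 counts in B6 males and was at least 51.2-fold higher in B6 females. Sult2a1, Sult2a2 and Sult2a5 had 6, 6 and 3 counts in the 12 males together, beside 65.8, 57.1 and 12.04 CPM on average in females. Fitted differences of such genes depend on the prior count, and Sult2a copies may share reads.

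Regulators of the axis differed mainly towards females. Of the 28 tested of 30 listed genes of growth hormone signalling and its transcription factors, 15 were called higher in females and 3 higher in males (median -0.35). The fit with GC slope called 7 higher in females and 0 higher in males. The repressor gene Cux2 was at 20.004 to 74.3 CPM (median 42.2) in B6 and 13.4 to 117 CPM (median 32.3) in TH females. Males had 0.307 to 0.615 CPM (median 0.492) and 0.327 to 1.59 CPM (median 0.502), without overlap, and the difference was -6.24 ± 0.41 (SE, adjusted p = 5.57e-12).

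Trim24, a cofactor of nuclear receptors, differed by -2.05 ± 0.14 and Tox, a chromatin protein, by -2.72 ± 0.21. The leptin receptor gene Lepr was at -2.76 ± 0.25, the oestrogen receptor gene Esr1 at -1.53 ± 0.12, the feedback inhibitor Socs2 at -1.49 ± 0.27 and Igfals, which stabilises IGF1 in plasma, at -1.30 ± 0.12. Among those higher in males, Bcl6 was at 1.13 ± 0.26, but it was not called with GC slope as a covariate (0.77). The receptor gene Ghr differed by 0.36 ± 0.06 and Igf1 by -0.39 ± 0.07. The prolactin receptor gene Prlr, a female-biased member, was at -1.94 ± 0.09.

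The largest differences lay in clusters of related genes. Of the 99 autosomal genes at least 4-fold higher in males, 46 (46.5%) had a neighbouring tested gene that was also at least 4-fold higher in males, beside 0.861% of the other genes. For the 85 higher in females the counts were 34 (40%) and 0.800%. Chromosome 4, which holds the Mup genes, Cyp4a12a and Cyp4a12b, carried 33 of the 99 among 994 genes tested. Chromosome 7, with Sult2a, Cyp2b and Cyp2a4 genes, carried 18 of the 85, and chromosome 19, with Cyp2c genes, Slc22a26, Slc22a27 and Cyp17a1, carried 11. Gene order came from GENCODE M21 on GRCm38, and copies within a cluster can share reads.

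The question of the 2 strains is whether males and females differed in the same way in each. In B6, 2131 genes (14.0%) were higher in males and 2468 (16.2%) in females, and in TH 2288 (15.0%) and 2445 (16.1%). Genes called in both with the same sign made up 45.4% of the B6 calls and 44.1% of the TH calls. Another 114 were called with opposite signs, 94 of them higher in B6 females and in TH males. Tested directly, the difference (TH minus B6) was above 0 for 855 genes (5.62%) and below 0 for 504 (3.32%). With GC slope as a covariate the counts were 635 (4.18%) and 386 (2.54%), and without TH male 6 they were 565 and 301. Within strains the fit with GC slope called 191 and 109 genes in B6 and 571 and 486 in TH. The counts within a strain thus shrank far more than those of the strain difference. Standard errors grew 2.08-fold in B6 and 1.70-fold in TH at the median, but 1.05-fold for the strain difference, so the losses of calls are not comparable.

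The classic sex-biased genes mostly had the same direction in both strains. Of the 24 male-biased genes, 23 were higher in males in B6 and 20 in TH (lower in 0 and 1), and of the 32 female-biased genes 30 were higher in females in B6 and 29 in TH (lower in 0 and 1). The fit with GC slope called 20 and 17 of the male-biased and 21 and 24 of the female-biased genes in B6 and TH. The 22 Mup genes gave 0 calls for the strain difference in either direction, at a median of 0.47. For the size of the difference, the male-biased list gave 1 call above 0 and 7 below, and the female-biased list 9 above and 3 below. Susd4, which encodes a complement inhibitor, was at 31.6 to 51.8 CPM (median 40.9998) in B6 males and 2.25 to 8.12 CPM (median 4.05) in B6 females. In TH, males had 91.0 to 121 CPM (median 101) and females 93.3 to 115 CPM (median 103). Its sex difference was thus 3.14 in B6 and 0.01 in TH, where the sexes overlapped, and the strain difference was -3.13 ± 0.26 (SE, adjusted p = 2.45e-08).

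Macrophage genes differed between the strains in their sex difference. Of the 24 tested macrophage genes, 18 were higher in females in B6 and 0 in males. In TH 7 were higher in males and 1 in females. The strain difference was above 0 for 19 of 24 and below 0 for 0, with a median of 1.42 beside -0.02 over all genes. Dropping the pair of libraries that stood apart left 16 of 24. GC slope as a covariate left 18 of 24 for the strain difference, but within strains 1 higher in B6 females and 2 higher in TH males. The median sex differences were -1.11 in B6 and 0.43 in TH without the covariate and -1.14 and 0.43 with it.

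Cd68, a lysosomal marker of macrophages, was at 5.17 to 8.75 CPM (median 8.23) in B6 males and 13.1 to 26.5 CPM (median 16.6) in B6 females, without overlap. In TH males had 6.80 to 11.2 CPM (median 9.06) and females 4.88 to 9.22 CPM (median 6.18), which overlapped. The strain difference was 1.71 ± 0.26 (SE, adjusted p = 0.000339). The complement C1q chains, made by resident macrophages, were lower in B6 males by similar amounts: C1qa -1.23 ± 0.19, C1qb -1.14 ± 0.19 and C1qc -1.22 ± 0.20.

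Within the macrophage list the widest strain difference called was that of Mmp12, macrophage elastase. It was at 2.23 to 17.1 CPM (median 6.38) in TH males and 0.0711 to 0.824 CPM (median 0.485) in TH females, without overlap. B6 males and females had 0.123 to 0.460 CPM (median 0.322) and 0.116 to 1.31 CPM (median 0.665). The strain difference was 5.01 ± 0.81 (SE, adjusted p = 0.000486), and those of Gpnmb, Itgax (CD11c), Trem2 and Cd14 were 4.27 ± 1.09, 3.84 ± 0.79, 2.83 ± 0.54 and 2.07 ± 0.41. Gpnmb and Trem2 had 17 and 18 counts in the 6 B6 males together, so their values rest on few counts.

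In bulk tissue, more cells of a type and more RNA per cell cannot be told apart. The summed level of the whole macrophage list was 638 to 1479 CPM in B6 females and 297 to 536 in B6 males, without overlap. In TH it was 257 to 458 CPM in females and 379 to 578 in males, with overlap. This sum holds the same genes as the counts above, Mmp12 among them, so it is no separate measure of cell number. Stellate markers summed to 239.2 to 313 CPM in B6 females, 137 to 288 in B6 males, 215.8 to 322 in TH females and 303 to 396 in TH males, and 5 of these 8 genes had a strain difference above 0 (0 below). Endothelial markers summed to 328 to 492, 235 to 417, 205 to 438 and 343 to 384 CPM in the same order, with 3 of 10 above 0 and 0 below. Hepatocyte markers summed to 35149 to 40644 CPM in B6 females, 45925 to 56690 in B6 males, 37139 to 45400 in TH females and 41767 to 53138 in TH males. The part of cell composition in the strain differences was not tested.

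By the number of genes called, extracellular matrix genes followed the same pattern. Their summed level was 3084 to 3510 CPM (median 3300) in B6 females and 1920 to 3066 CPM (median 2974) in B6 males. In TH the sum was 2698 to 3845 CPM (median 3476) in females and 2616 to 3432 CPM (median 3278) in males, with overlap. Of 23 tested of 24 listed, 15 were higher in females in B6 and 0 in males, and in TH 13 were higher in males and 1 in females. The strain difference was above 0 for 18 of 23, with a median of 1.18, and below 0 for 0. The 15 calls within B6 fell to 5 without the libraries that stood apart and to 7 without B6 female 3 alone, whereas the strain difference was then called for 12 of 23. GC slope as a covariate left 0 in B6 females, 1 in TH males and 12 of 23 for the strain difference. The median sex differences were -0.71 in B6 and 0.62 in TH without the covariate and -0.50 and 0.75 with it.

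Col1a1, a chain of fibrillar collagen, was at 2.91 to 6.13 CPM (median 4.27) in B6 males and 7.63 to 29.1 CPM (median 10.7) in B6 females, without overlap. TH males had 7.30 to 64.1 CPM (median 23.9) and TH females 3.49 to 14.0 CPM (median 10.7), with overlap. The sex differences were -1.76 ± 0.49 in B6 and 1.46 ± 0.43 in TH, and the strain difference was 3.22 ± 0.65 (SE, adjusted p = 0.00369). Col4a2, of basement membranes, was at 49.5 to 71.4 CPM (median 65.2) in TH males and 15.7 to 28.9 CPM (median 26.0) in TH females, without overlap, and its strain difference was 1.80 ± 0.21. Others called were Col1a2 (2.32 ± 0.45), Col3a1 (2.02 ± 0.40), the crosslinking enzyme gene Lox (2.27 ± 0.64) and Thbs1 (2.01 ± 0.49). Col5a2 ran the other way, at -2.46 ± 0.31 in TH and -1.12 ± 0.39 in B6.

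**Figure D3:**
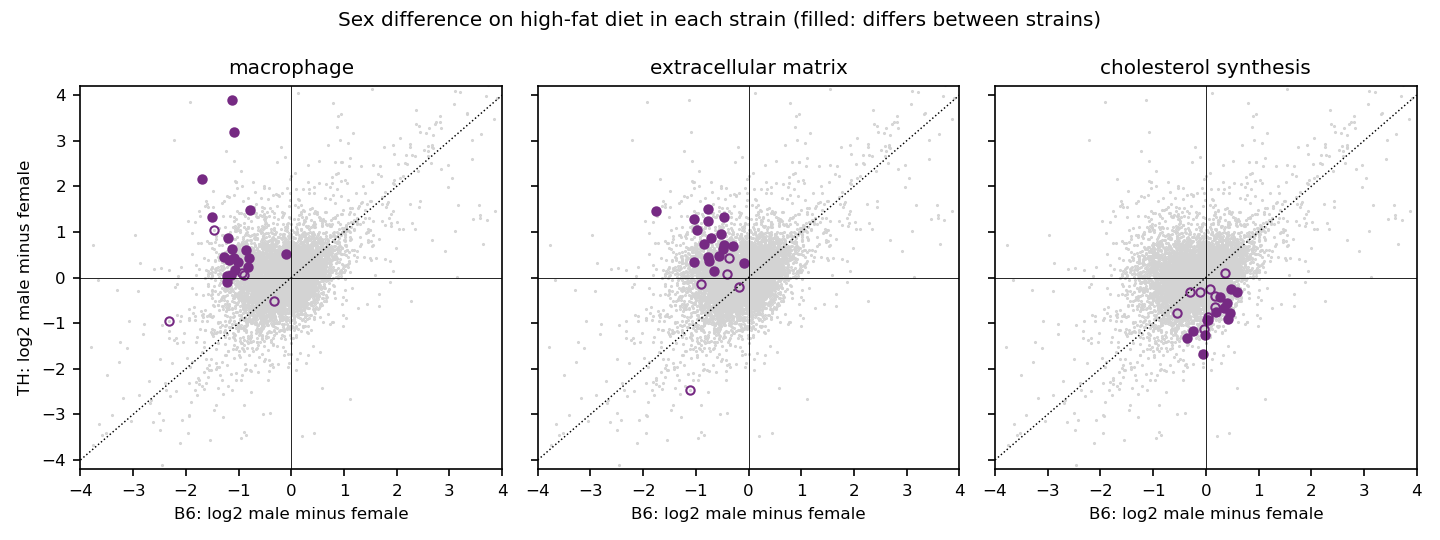
Log2 difference, male minus female, in B6 (horizontal axis) and in TH (vertical axis) for macrophage, extracellular matrix and cholesterol synthesis genes, over all genes in grey; points beyond 4 are not drawn and filled points passed the test of the strain difference. The macrophage genes lie mostly left of 0 in B6, where 18 of 24 were higher in females, and the cholesterol genes below 0 in TH, where 17 of 23 were; with GC slope as a covariate these counts were 1 and 3.

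Interferon-stimulated and proliferation genes had smaller counts. Of 19 interferon genes, 13 were higher in females in B6 and 0 in males, 0 and 2 in TH, and the strain difference was above 0 for 7 (median 0.89). Without the libraries that stood apart, 2 of 19 were called, and leaving out 1 library at a time gave from 2 (without TH male 2) to 12 (without TH male 4). The replicate number as a block gave 11, the fit of all 96 liver libraries 2, and GC slope as a covariate 2, with 0 in B6 females and 1 in TH males. Of 20 tested proliferation genes, 6 were higher in TH males and the strain difference was above 0 for 5 (median 1.32), or 3 without those libraries, with a range from 2 (without TH male 6) to 13 (without TH female 3). Only 2 were called with GC slope, and 0 in TH males. Plk1, a mitotic kinase, was at 3.21 ± 0.87 and the cyclin gene Ccna2 at 2.33 ± 0.60. Plk1 had 11 counts in the 6 B6 males together.

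Lipid droplet and uptake genes were higher in TH males. Of 18 tested of 20 listed, 11 were higher in males in TH and 3 in females, beside 3 and 3 in B6. By strain, the difference was above 0 for 7 and below 0 for 0, with a median of 0.73. With GC slope, 6 were called in TH males, 1 in B6 males and 5 for the strain difference. Cd36, the fatty acid translocase, was at 15.7 to 41.4 CPM (median 23.8) in B6 males and 40.6 to 93.8 CPM (median 49.3) in B6 females. In TH it was at 18.4 to 109 CPM (median 46.7) in males and 9.604 to 20.8 CPM (median 15.2) in females. The sexes overlapped slightly in each strain, and the sex differences were -1.18 ± 0.32 and 1.77 ± 0.33, both called.

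The strain difference of Cd36 was 2.95 ± 0.46 (SE, adjusted p = 0.000371). Pparg, the nuclear receptor of fat storage, was at 2.47 ± 0.45 in TH and 0.32 ± 0.23 in B6, with a strain difference of 2.15 ± 0.51. It had 16 counts in the 6 TH females together. Lpl, lipoprotein lipase, had 1.96 ± 0.36, Fabp4, a fatty acid carrier, 1.83 ± 0.28, and Plin2, the main droplet coat protein of liver, 0.59 ± 0.16. Fitm1, which helps to form droplets, was higher in males of both strains (2.27 ± 0.24 in B6 and 4.79 ± 0.33 in TH).

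Cholesterol synthesis genes had strain differences below 0. Of 23 genes, 17 were higher in females in TH and 0 in males, beside 1 and 2 in B6, and the strain difference was below 0 for 13 and above 0 for 0 (median -0.95). The fit with GC slope called 10, as did the fit without the libraries that stood apart, but with GC slope only 3 were called in TH and 0 in B6. Sqle, squalene epoxidase, was at 13.7 to 52.9 CPM (median 24.2) in TH males and 50.8 to 136 CPM (median 63.3) in TH females, where the highest male was above the lowest female. B6 males and females had 56.0 to 93.3 CPM (median 72.1) and 40.6 to 129 CPM (median 62.7). The strain difference was -1.62 ± 0.46 (SE, adjusted p = 0.0288), and it was not called without the libraries that stood apart (-1.57).

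Markers of periportal hepatocytes, those near the portal vein, moved with these genes in TH. Their summed level was 4892 to 6689 CPM in TH males and 7911 to 9147 in TH females, without overlap, beside 7903 to 10731 in B6 males and 6561 to 10699 in B6 females. Of these 10 genes the strain difference was below 0 for 4 and above 0 for 2, and their part in the cholesterol result was not tested.

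Fdps, Idi1 and Pmvk, enzymes of the isoprenoid steps, had strain differences of -1.32 ± 0.35, -1.24 ± 0.32 and -1.23 ± 0.27. Srebf2, the gene of the pathway's transcription factor, was higher in females in both strains (-0.66 ± 0.07), with a strain difference of -0.25 that was not called. Hmgcs1, which commits acetyl-CoA to the pathway, was at -1.01 ± 0.32. It is shown because it was the 1 gene of 15 with a promoter in the table that held the SREBP element TCACNCCAC, searched on both strands, at chr13:119690101-119690350 on the plus strand of GRCm38.p6, starting 137 bases before the start.
Hmgcs1: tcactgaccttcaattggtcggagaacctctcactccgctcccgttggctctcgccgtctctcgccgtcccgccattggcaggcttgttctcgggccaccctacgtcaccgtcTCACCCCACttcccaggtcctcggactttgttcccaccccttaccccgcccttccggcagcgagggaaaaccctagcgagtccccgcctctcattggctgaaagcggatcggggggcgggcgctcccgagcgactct
The element was in 1.25% of all promoters and 1.35% of those tested. It was also in 2 of 18 promoters of the macrophage list (Spp1 and Timd4).

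Of the genes named by size of the strain difference above 0, Cyp3a41b, a cytochrome of female liver, was at 316 to 2610.4 CPM (median 2420.2) in B6 females and 9.13 to 14.9 CPM (median 12.2) in B6 males. TH females had 681 to 1247 CPM (median 958) and TH males 97.1 to 142 CPM (median 118). It was higher in females of both strains without overlap, and the gap was smaller in TH by 4.30 ± 0.43 (SE, adjusted p = 9.73e-07). Abcc12, a transporter, was at 12.3 to 42.2 CPM (median 17.3) in TH males and 0.511 to 1.27 CPM (median 0.855) in TH females (4.10 ± 0.73). Ly6d and Zfp982 had strain differences of 5.78 ± 1.29 and 4.25 ± 0.88. Counts were few in 1 group: Zfp982 had 2 in the 6 TH females together, and Abcc12 had 17 in the 6 B6 males.

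Below 0, Sult1a1, a phenol sulfotransferase, was at 28.8 to 43.4 CPM (median 36.5) in TH males and 247.9 to 323 CPM (median 275) in TH females, without overlap. In B6 it was at 202 to 276 CPM (median 254.96) in males and 261 to 383 CPM (median 336) in females, and the strain difference was -2.55 ± 0.15 (SE, adjusted p = 1.38e-11). Ugt2b37, a glucuronosyltransferase, was at 1.81 to 5.66 CPM (median 3.79) in TH males and 13.9 to 63.9 CPM (median 43.7) in TH females, with a strain difference of -3.67 ± 0.43. Adgrf1, an adhesion receptor, and Scara5, a ferritin receptor, had -3.00 ± 0.65 and -2.98 ± 0.84. The 6 B6 females together had 19 counts of Scara5. Scara5 lost its call when TH female 4 or TH female 5 was left out, in the fit of all 96 liver libraries (-2.98) and with thinned counts (-3.32).

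**Figure D4:**
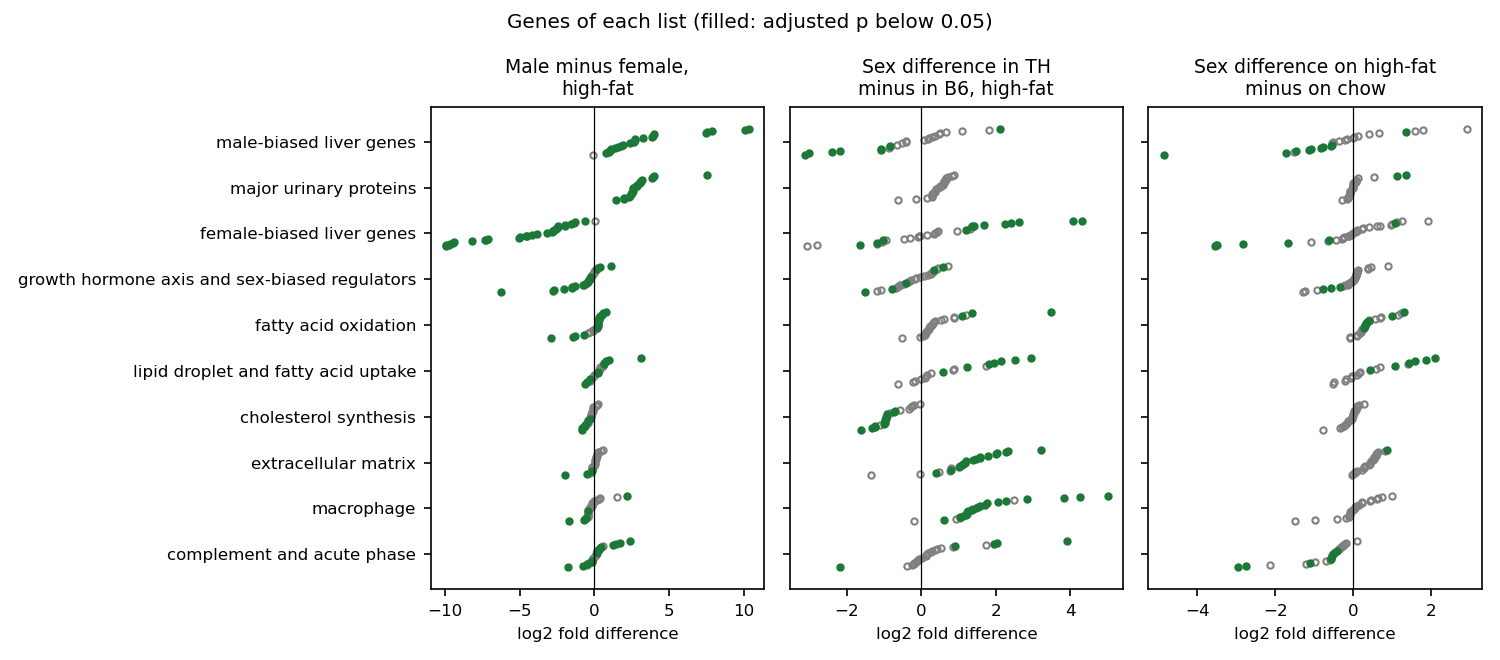
Log2 values of the members of 10 gene lists, 1 point per gene, for male minus female on the high-fat diet, for that difference in TH minus in B6, and for that difference on the high-fat diet minus on chow; filled points passed an adjusted p of 0.05. The male-biased, Mup and female-biased lists stand apart in the first panel, and the macrophage, matrix and cholesterol lists in the second.

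The chow libraries of the same age show where the diet moved the sex difference. On chow 3174 of 15794 genes (20.1%) were higher in males and 3689 (23.4%) in females. Among the 15203 genes tested in both fits, 3915 were called on both diets with the same sign, and 42 with opposite signs. The 3915 made up 67.1% of the high-fat calls and 58.5% of the 6694 chow calls among those genes. The 2 diets came from separate mice. Tested directly, the diet difference of the sex difference (high-fat minus chow) was above 0 for 259 genes (1.64%) and below 0 for 207 (1.31%). Without high-fat TH male 3 these counts were 406 and 336. The shares with GC slope as a covariate were 1.85% and 1.59%.

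The male-biased list had a median of 2.63 on the high-fat diet beside 3.35 on chow, and the diet difference was below 0 for 9 of 24 and above 0 for 1. The female-biased list had -3.48 beside -2.77, with 6 of 32 below 0 and 1 above, and the Mup list 2.67 beside 2.63, with 2 of 22 above 0 and 0 below. In mice of 5 weeks of age, 1 week after weaning, the medians were 2.37 on the high-fat diet and 1.65 on chow for the male-biased list, -3.06 and -1.73 for the female-biased list and 2.05 and 1.09 for the Mup list. The sex differences were thus smaller at 5 weeks, by their medians, in each list and on each diet. The medians at 5 weeks came from the fit of all 96 liver libraries. Those at 20 weeks came from the separate fits of 24 high-fat and of 48 libraries. The ages were not compared by a test.

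Hsd3b5, a steroid reductase of male liver, had the largest loss. On chow it was at 156 to 242.3 CPM (median 196) in B6 males and 0.0730 to 0.631 CPM (median 0.343) in B6 females, and on the high-fat diet at 288 to 352 CPM (median 313) and 6.20 to 49.5 CPM (median 12.8). In TH the chow levels were 276 to 375 CPM (median 344) in males and 0.639 to 15.3 CPM (median 2.68) in females. The high-fat levels were 55.5 to 436 CPM (median 202) and 49.3 to 102 CPM (median 78.04), and only there did the sexes overlap.

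The sex difference of Hsd3b5 fell from 7.53 ± 0.42 on chow to 2.64 ± 0.41 on the high-fat diet, and the diet difference was -4.87 ± 0.50 (SE, adjusted p = 4.75e-09). Females rose by 4.89 ± 0.41 (SE, adjusted p = 1.24e-12) between diets, and males by 0.02 ± 0.28, which was not called. Its copy Hsd3b4 had a diet difference of -3.71 ± 0.53, and these near-identical genes may share reads. With GC slope as a covariate the high-fat sex difference of Hsd3b5 was 2.18 and not called.

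Other male-biased genes whose difference shrank were Slco1a1 (-1.46 ± 0.29), Egfr (-1.14 ± 0.33), Serpina1e (-1.09 ± 0.21), Nudt7 (-0.84 ± 0.16), Cyp7b1 (-0.78 ± 0.20) and C6 (-0.58 ± 0.15). Slco1a1 rose in females by 1.88 ± 0.22, and C6 by 0.67 ± 0.11. Mup20 was the member whose difference grew, at 1.37 ± 0.22 (SE, adjusted p = 0.000126), with a rise of 0.99 ± 0.16 in males.

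Among female genes the Cyp3a cluster of chromosome 5 widened. Cyp3a41b was at -1.62 ± 0.23 on chow and -5.05 ± 0.58 on the high-fat diet, with a diet difference of -3.56 ± 0.33 (SE, adjusted p = 2.17e-10). Between diets it changed by -2.32 ± 0.24 (SE, adjusted p = 4.18e-10) in males and by 1.24 ± 0.22 in females. Cyp3a44 and Cyp3a16 had diet differences of -3.51 ± 0.27 and -2.83 ± 0.43, and copies of this cluster may share reads.

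**Figure D5:**
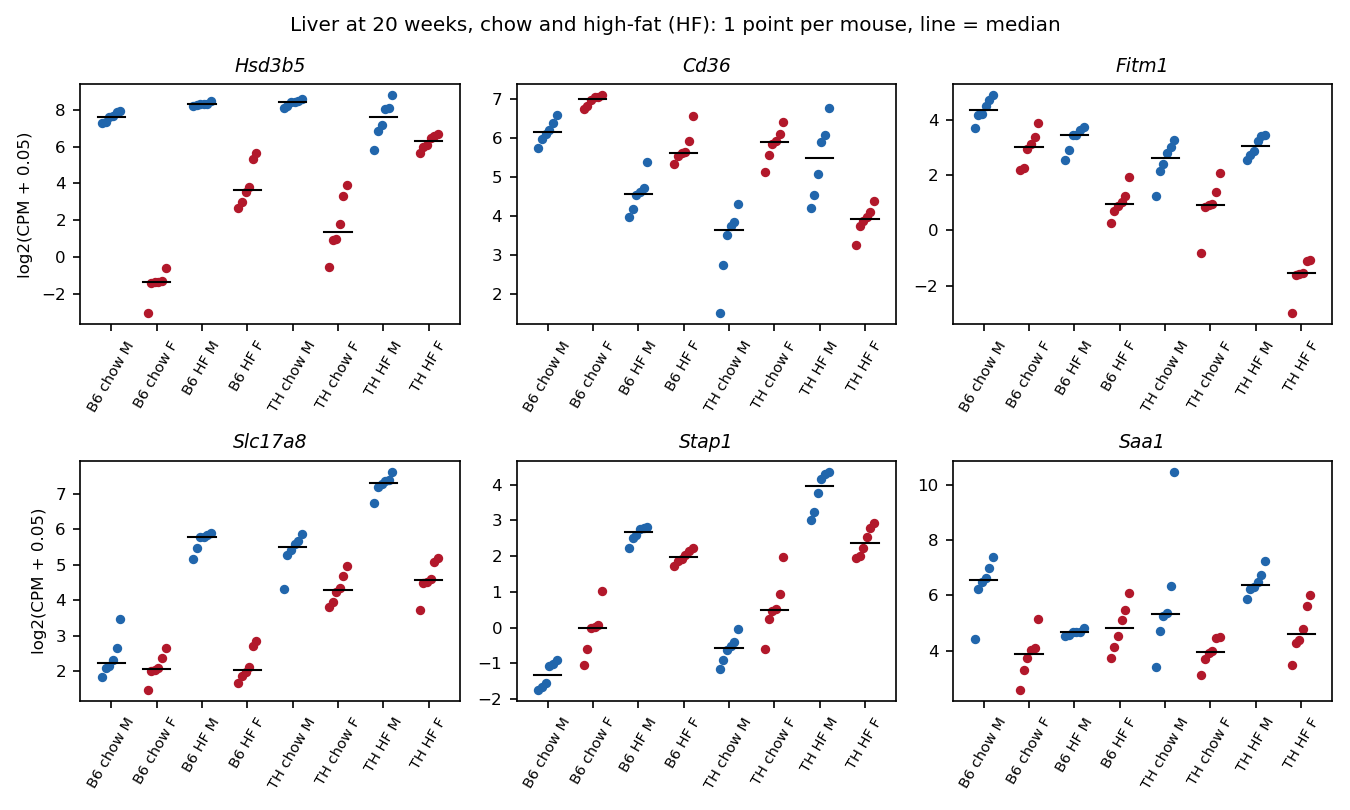
Levels of Hsd3b5, Cd36, Fitm1, Slc17a8, Stap1 and Saa1 as log2(CPM + 0.05) in the 8 groups of strain, sex and diet at 20 weeks, 1 point per mouse, with a line at the group median. Hsd3b5 rises in females and Slc17a8 in males on the high-fat diet.

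Averaged over strains, fatty acid oxidation and lipid droplet genes shifted towards males. Of 24 oxidation genes, 12 were higher in males and 4 in females on the high-fat diet, beside 3 and 10 on chow, and the diet difference was above 0 for 7 and below 0 for 0 (median 0.30 beside 0.01 over all genes). GC slope as a covariate left 4 and 1 on the high-fat diet, and 7 for the diet difference. Acot1 and Acot2, acyl-CoA thioesterases that may share reads, had 1.30 ± 0.29 and 1.01 ± 0.22. Decr1 and Acadm, of mitochondrial beta-oxidation, had 0.40 ± 0.08 and 0.30 ± 0.07. The Acot1 level fell more in females (-2.01 ± 0.20) than in males (-0.71 ± 0.22).

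Of 18 lipid droplet genes the diet difference, averaged over strains, was above 0 for 6 and below 0 for 0 (median 0.30). On chow, the median summed level of the 20 listed genes was 1134 CPM in B6 males and 1175 CPM in B6 females. On the high-fat diet these medians were 1421 and 1483 CPM. In TH males and females they were 998 and 1118 CPM on chow, and 2362 and 1604 CPM on the high-fat diet. By these medians males passed females only in TH, and the diet difference was not tested within each strain. Fitm1 was at 1.14 to 3.76 CPM (median 1.87) in B6 females and 0.0750 to 0.426 CPM (median 0.288) in TH females on the high-fat diet. On chow those groups had 4.43 to 14.6 CPM (median 8.11) and 0.511 to 4.1996 CPM (median 1.84). The diet difference was 2.11 ± 0.36 (SE, adjusted p = 0.000216), with -2.41 ± 0.28 in females and -0.30 ± 0.21 in males. Cd36 had 1.86 ± 0.30, Apoa4, a lipoprotein component, 1.59 ± 0.27, Pparg 1.42 ± 0.34 and Fabp4 1.07 ± 0.26. In lipogenesis, 3 of 19 genes were above 0 and 0 below: Scd1, the stearoyl-CoA desaturase (1.40 ± 0.36), Pklr, pyruvate kinase (0.97 ± 0.24), and Elovl5 (0.71 ± 0.17).

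Complement and acute phase genes had diet differences below 0. Of 25 tested of 26 listed, 9 were higher in males and 6 in females on the high-fat diet, beside 18 and 1 on chow, and the diet difference was below 0 for 7 and above 0 for 0 (median -0.51). GC slope as a covariate left 2 higher in males and 0 in females on the high-fat diet, and 5 for the diet difference. The members called were C3 (-0.42 ± 0.12), C4b (-0.57 ± 0.13), C6 (-0.58 ± 0.15), C9 (-0.51 ± 0.11), the pentraxin gene Apcs (-1.12 ± 0.29), and the serum amyloid genes Saa1 (-2.75 ± 0.66) and Saa2 (-2.96 ± 0.80). Saa1 was at 23.0 to 28.4 CPM (median 25.8) in B6 males and 13.3 to 68.7 CPM (median 28.9) in B6 females on the high-fat diet, with overlap. It lost its call with GC slope as a covariate (-2.10) and without TH male 1 on chow (-1.37). Saa1 was also not called without the 5 libraries of both diets that stood apart (-1.18).

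Bile acid genes changed in both directions across the diet. Of 21 tested of 22 listed, 8 were higher in males and 6 in females on the high-fat diet (3 and 2 with GC slope), and the diet difference was below 0 for 5 and above 0 for 1. Cyp8b1, the sterol 12-alpha-hydroxylase, kept a male excess that was smaller on the high-fat diet (0.58 ± 0.12 beside 1.61 ± 0.15 on chow). The uptake carrier gene Slco1a4 was higher in females by a wider margin (-2.47 ± 0.18 beside -1.23 ± 0.15). Cyp7a1, which controls the entry step of the bile acid pathway, was at 149.98 to 336 CPM (median 180.2) in TH females and 24.5 to 86.2 CPM (median 64.7) in TH males, without overlap (-1.82 ± 0.36 in TH, -0.43 ± 0.36 in B6), but its strain difference of -1.39 was not called (adjusted p = 0.0827).

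Among the genes named by size, Slc17a8, a vesicular glutamate transporter, was raised by the diet in males. B6 males had 35.9 to 59.5 CPM (median 55.5) on the high-fat diet and 3.53 to 11.003 CPM (median 4.69) on chow, and TH males 107 to 197 CPM (median 159) and 19.9 to 58.6 CPM (median 45.3), without overlap in either strain. B6 females had 3.14 to 7.15 CPM (median 4.10) and 2.75 to 6.23 CPM (median 4.17). The diet difference was 2.29 ± 0.25 (SE, adjusted p = 1.51e-08).

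Stap1, a signalling adaptor, rose in both sexes, by 4.31 ± 0.26 in males and 1.82 ± 0.20 in females, with a diet difference of 2.49 ± 0.35 (SE, adjusted p = 7.2e-06). Rgs16, a regulator of G-protein signalling, had 4.02 ± 0.75 and Crybg2 2.49 ± 0.55. Sult2a7 was at 3.83 ± 0.52, with a change of -4.38 ± 0.29 in females between diets. Tcf24 and the amylase gene Amy2b were below 0, at -3.77 ± 0.83 and -3.71 ± 1.05. Tcf24 was not called without B6 male 6 on chow (-2.22). Amy2b is an acinar pancreas gene. On the high-fat diet the summed acinar markers reached 199 CPM in 1 B6 female and 372 CPM in 1 TH female. The medians there were at most 0.63 CPM in the 4 groups. On chow the highest B6 male had 565 CPM, beside a group median of 0.44 CPM. The Amy2b value without the 5 libraries of both diets that stood apart was -3.67, close to the main value but not called. The call was also lost without any 1 of 7 single libraries, among them the high-fat B6 female 6 (-2.66) and TH female 5 (-2.35).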

How the data were processed

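Poly(A) RNA of liver was sequenced from stranded libraries, per the labels' protocols. The table the authors deposited holds raw read counts, 1 row per Ensembl gene. Reads were handled with DESeq2, DESeq, SAMtools, HISAT2 2.2.1 and Trimmomatic 0.39 on build GRCm39, per the submitters' processing notes. How reads were counted, and on which strand and annotation, is not given in the sources used here, so near-identical, overlapping and antisense genes carry uncertain values. The table's other 303 columns, of other tissues, were not used. Symbols and autosomes came from GENCODE M21.

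Counts were filtered with filterByExpr (minimum count 10, minimum total 15) and scaled by TMM factors. Male minus female was tested with edgeR 4.0.16's quasi-likelihood test in R 4.3.3, with strain as a covariate, and p-values were adjusted by Benjamini-Hochberg over the 15985 genes of all chromosomes. Called means an adjusted p below 0.05, and only autosomal genes were counted and named. Within-strain and strain-by-sex contrasts used 1 mean per strain and sex in the same 24 libraries. Diet contrasts used 48 libraries with 1 mean per group, averaged over strains. Standard errors are on the log2 scale. They were derived from the test, as the size of the log2 difference divided by the square root of its F statistic.

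The mice of a group are separate animals. Replicate numbers did not pair the libraries. Only the sex comparison was tested on simulated data, with 15837 genes. Of genes changed by a log2 value of 1, 90 of 100 were called, and 62 of 100 of those changed by 0.5. There were 6 unchanged genes among 158 calls. The simulated libraries had no GC slope tied to sex, so these counts do not bear on that slope. The strain and diet differences were not simulated. Alternatives were RLE factors, no filter, DESeq2 1.42.0, other sets of libraries, a replicate block, thinned totals and GC slope as a covariate.

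Named genes were the 10 largest log2 differences per direction with the same sign in both strains, the 5 largest per direction for strain by sex and diet by sex (mean log2 CPM of at least 1, no clone or pseudogene names), and members of 29 gene lists. Some genes that these rules name are not reported here. The comparison and the lists were chosen with earlier results of these data known.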

Additional observations from a re-analysis of the deposited data

Results flagged for a closer look

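In 6 of the 84 groups of 6 values that were examined, the highest or lowest library lay apart from the others by Dixon's criterion, where chance gives about 1 in 20. For GC slope these were a B6 male at -0.68, above the others of its group, and a TH female at 1.97. For single genes they were Cd36 at 93.8 CPM in a B6 female, and 3 TH males: Cux2 at 1.59 CPM, Mmp12 at 17.1 CPM and Sqle at 52.9 CPM. Each of these was the highest library of its group.

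Sex differences that differed between the strains, by the test of the strain difference, were widest for Ly6d (5.78 on the log2 scale, TH minus B6), Mmp12 (5.01), Cyp3a41b (4.30), Zfp982 (4.25) and Abcc12 (4.10) above 0. Below 0 they were Ugt2b37 (-3.67), Susd4 (-3.13), Adgrf1 (-3.00), Scara5 (-2.98) and Sult1a1 (-2.55).

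Those that differed between the diets, by the test of the diet difference, were widest for Rgs16 (4.02, high-fat minus chow), Sult2a7 (3.83), Stap1 (2.49), Crybg2 (2.49) and Slc17a8 (2.29) above 0. Below 0 they were Hsd3b5 (-4.87), Tcf24 (-3.77), Amy2b (-3.71), Hsd3b4 (-3.71) and Cyp3a41b (-3.56).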

How the results depend on the processing

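Counts are given as higher in males and higher in females, or above and below 0. GC slope as a covariate, chosen after seeing the data, moved the most: the calls fell from 2837 and 2996 to 353 and 273 for the sex difference, to 191 and 109 within B6, to 571 and 486 within TH and to 1687 and 1567 on chow, the male-biased list from 23 to 15 and the growth hormone axis list from 15 to 7 below 0, and Egfr turned to -0.19. The standard errors grew 2.38-fold, and sex took 81.997% of the variance of the slope; beyond that the cause was not tested. Without a filter on low counts the strain difference was below 0 for 332 genes. In the fit of all 16 liver groups the diet difference gave 393 and 354 calls and the complement list 11 below 0, and DESeq2 gave 378 below 0; the cause was not tested.

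Leaving out 1 library at a time gave 2697 to 2919 and 2825 to 3085 calls for the sex difference, 1877 to 2092 and 2129 to 2405 in B6, 1951 to 2390 and 2112 to 2484 in TH, and 2999 to 3276 and 3469 to 3741 on chow. The strain difference gave 565 to 1029 above and 301 to 636 below 0, lowest without TH male 6 and highest without TH male 3. The diet difference gave 193 to 406 and 176 to 336, highest without TH male 3. Among the lists these ranges were 17 to 20 for macrophage, 13 to 19 for matrix, 9 to 16 for cholesterol and 6 to 7 for lipid droplet genes by strain, and 6 to 10 for oxidation, 5 to 6 for lipid droplet, 5 to 9 for complement and 8 to 9 for male-biased genes by diet.

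The replicate number as a block gave 2752 and 2896 calls for the sex difference, 859 and 496 for the strain difference and 221 below 0 for the diet difference, moved the interferon list from 7 to 11 by strain, and lost the calls of Saa1 (-2.15) and Amy2b (-3.20). Deviations of the 36 same-numbered pairs correlated at 0.013 on average (-0.30 to 0.23), and 3 of 24 libraries correlated best with their own number. Over settings other than GC slope, 24 of 2698 named gene values lost their call and 0 changed sign. Depth, higher in females, was tried by thinning all libraries to the lowest total, which gave 2506 and 2635 calls.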

Other observations

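Other lists touched the sexes less evenly. Of 22 genes of the endoplasmic reticulum that fold secreted proteins, 9 were higher in males and 0 in females on the high-fat diet, beside 20 and 0 on chow. The chaperone gene Hspa5 was at 0.46 ± 0.13 on the high-fat diet and 1.00 ± 0.13 on chow, and its diet difference was not called (adjusted p = 0.091). With GC slope as a covariate, 0 of the 22 were called on the high-fat diet.

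Of 18 genes of glucose metabolism and insulin signalling, 2 were higher in males and 6 in females, beside 18.7% and 19.7% of all genes, and 0 and 2 were called with GC slope. The strain difference was below 0 for 3 and above 0 for 0. Tat, which degrades tyrosine, was at -1.10 ± 0.19 in TH and 0.07 ± 0.19 in B6, with a strain difference of -1.17 ± 0.27 (SE, adjusted p = 0.00974). Slc2a2, the hepatic glucose carrier, was higher in males by 0.43 ± 0.09, and Pck1, of gluconeogenesis, higher in females (-0.74 ± 0.19), with a diet difference of -1.05 ± 0.24.

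Of 25 conjugation and drug-handling genes, 12 were higher in males and 8 in females (3 and 4 with GC slope), with strain differences above 0 for 5 and below 0 for 4. Gsta1, a glutathione transferase, was at 3.59 ± 0.38 in TH and 0.95 ± 0.36 in B6 (2.64 ± 0.54 (SE, adjusted p = 0.00407) between strains), and reads may be shared with Gsta2. Cyp2b10, the usual readout of the receptor CAR, was at -5.31 ± 0.33 on the high-fat diet and -2.25 ± 0.20 on chow, with 16 counts in the 12 high-fat males together. Por, the reductase that serves the cytochromes, was higher in females (-1.50 ± 0.11).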
